A study of Mus musculus with 12 samples.

Results

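The genes described here build and charge the machinery of translation: the initiation factors with their kinases and binding proteins, the elongation factors, the release factor Etf1 and the aminoacyl-tRNA synthetases. They were chosen by symbol, as names that begin with Eif or Eef and a digit, the name Etf1, or an amino acid code of 1 or 2 letters followed by ars or ars2. The rule took 56 of the 9212 genes named on the array, read by 66 probes, and used no measured value. Of these, 39 were factors and their regulators and 17 were tRNA synthetases.

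RNA of mouse embryoid bodies (EB), aggregates in which embryonic stem (ES) cells differentiate without a directed signal, was compared with RNA of undifferentiated ES cells of the R1 line on 12 arrays with 2 channels each. The EB had been dissociated and plated in serum for 4, 8, 15 or 21 days, with 3 arrays a day, and the ES cells had been kept on gelatin with leukemia inhibitory factor. Every EB and ES sample thus came from 1 untreated cell line, and no label tells whether arrays of the same day held separate cultures, so p-values cover array-to-array spread alone, possibly technical. The small number of arrays limits the precision.

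Values are the authors' normalized log ratios, read here as log2, and positive ratios are taken to mean more RNA in EB. That direction is likely and not settled: the label protocols give Cy5 to EB RNA, whereas the sample titles and dye fields run the other way. With it the ES cell marker Zfp42 stood at -2.54 ± 0.02 and the endoderm marker Afp at 3.60 ± 0.44 at day 21 (SD, n = 3 each). Under the opposite reading all statements of higher and lower trade places. The dyes were not swapped on any array, and gene-specific dye bias therefore remains in each ratio against ES cells. A gene is said to be called, to have risen or to have fallen where limma's p, adjusted by Benjamini-Hochberg over all 10689 features tested, was under 0.05.

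Translation begins when eIF2 brings the initiator tRNA to the small ribosomal subunit, helped by eIF1A and the large complex eIF3, while the eIF4 factors bind the cap of the mRNA and unwind its leader. eEF1A then delivers charged tRNAs, eEF2 moves the ribosome along, and eRF1, the product of Etf1, recognises stop codons. The synthetases charge each tRNA with its amino acid, with largely separate sets of enzymes for the cytosol and the mitochondria. Dividing ES cells are known for a small cytoplasm and a low overall rate of protein synthesis that increases on differentiation.

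Of the 56 genes none passed the test at day 4 in either direction, 3 were lower at day 8, 14 at day 15 and 18 at day 21, and none was called higher at any of the 4 days. The calls made up 5.36%, 25% and 32.1% of the genes at days 8, 15 and 21. Over all features 0% were called at day 4, and 1.06%, 4.9% and 9.93% were called lower at days 8, 15 and 21, with a further 1.23%, 5.66% and 8.78% called higher, in all 2.28%, 10.6% and 18.7%. The share of calls among translation genes was therefore above that of the array from day 8 on, and all of it lay on the lower side. The median ratio over the 56 genes was -0.0032 at day 4, -0.08 at day 8, -0.12 at day 15 and -0.19 at day 21, whereas the median of all features stayed between -0.0011 and 0.0074. At day 21, 50 of the 56 genes had a negative mean, and 37 (66.1%) lay below 0 on each of the 3 arrays, against 26.6% of all features. At day 4 the limma test left 11 of the 56 with an unadjusted p under 0.05, and other settings called up to 5. Those 5 came with quantile normalization, which called 137 of all features.

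**Figure D1:**
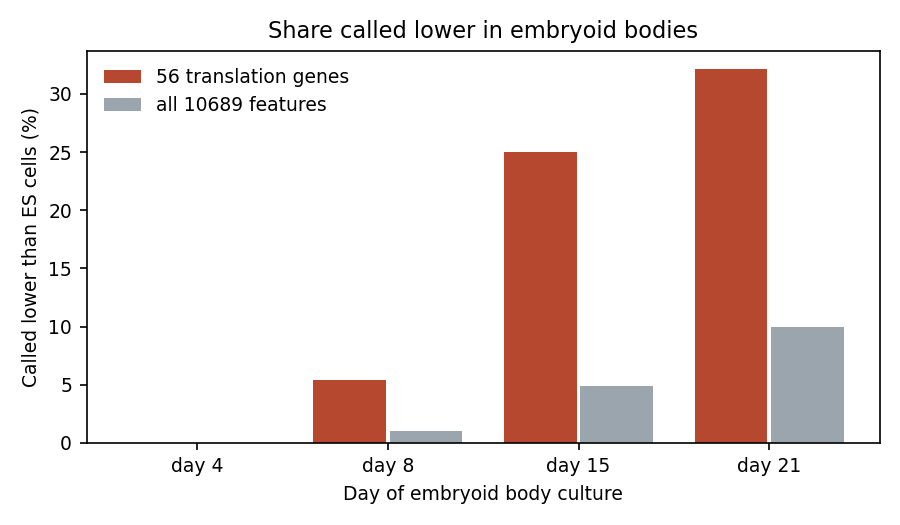
Bars show the percentage of features called lower in EB than in ES cells (adjusted p under 0.05) at days 4, 8, 15 and 21, for the 56 translation genes beside all 10689 features. The translation genes reached 25% at day 15 and 32.1% at day 21, against 4.9% and 9.93% of all features.

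Markers of the cells moved with these genes. All 5 ES cell markers (Pou5f1, Nanog, Sox2, Zfp42 and Dppa5a) were lower at day 21, with a median of -1.69, and 4 of 5 at day 8. Of 4 genes of dividing cells 3 were lower at day 21: Mybl2 (-1.53), Top2a (-0.88) and Mcm2 (-0.52), while Mki67 stood at -0.17 without a call. All 4 markers of endoderm and liver, all 4 of mesenchyme, both keratins and all 3 genes of heart muscle had risen by day 21, with medians of 2.90, 1.95, 1.66 and 1.10, and of the neuronal pair Stmn2 was lower (-1.77) and Tubb3 was not called (0.12). In these bulk samples, fewer cells with much of a transcript and less of it per cell cannot be told apart. The part of cell makeup and of cell division in the results below was not tested.

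The arrays were split into 2 sets by spots without a gene, and not by a label. The positions used were picked because their medians differed widely between arrays, and the cut was put at -0.8. What these spots hold is not known here. At 4 positions repeated over the array, 96 spots without a gene had medians of -0.31 to 0.06 on 7 arrays (set 1) and of -1.54 to -1.04 on the other 5 (set 2), which are array 3 of each day and array 2 of day 8. Both sets occur at every day. Over the 56 genes the array medians were 0.02, -0.10 and 0.04 at day 4, -0.10, -0.04 and -0.17 at day 8, -0.04, -0.09 and -0.30 at day 15, and -0.20, -0.27 and -0.20 at day 21. Day 15 array 3 therefore lay lower than the other arrays of its day, whereas the day 21 arrays of both sets lay together.

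**Figure D2:**
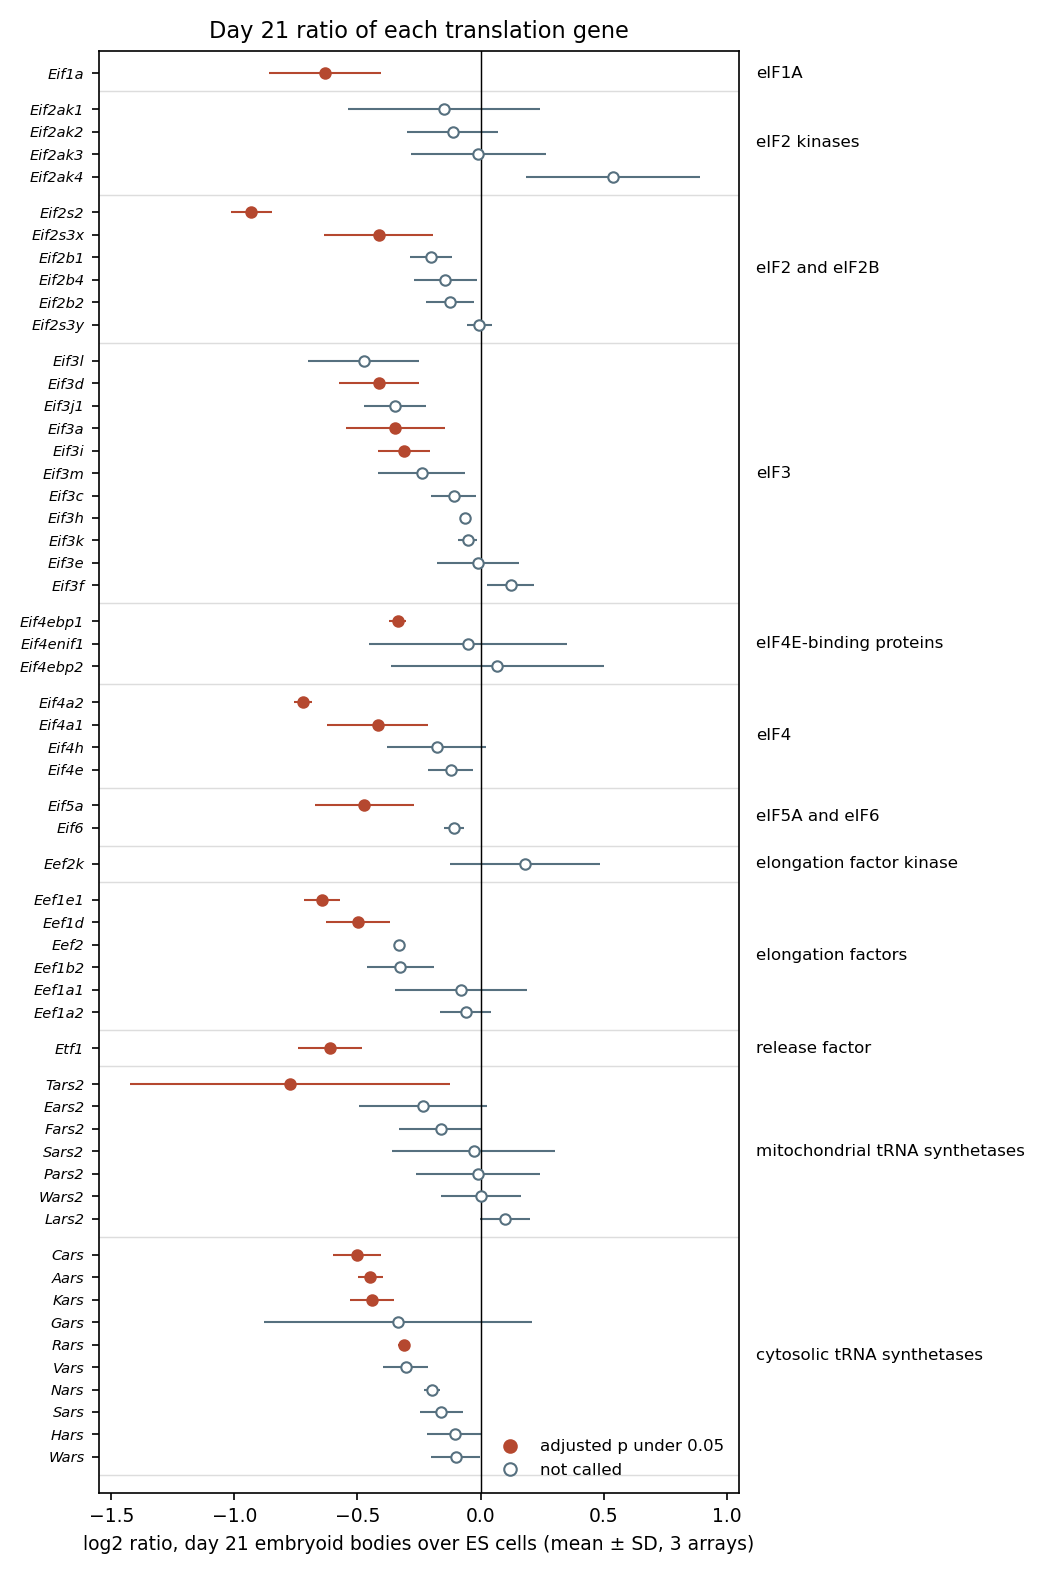
Each point is the mean log2 ratio of 1 gene at day 21 (EB over ES cells) with its standard deviation over 3 arrays, ordered by role and, within it, by value. Filled points mark the 18 called genes, all of them left of 0; Eif2s2 has the lowest mean, and Eif2ak4 has the highest mean.

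Among the initiation factors that act first, eIF2 held the gene with the lowest day 21 mean of all 56. Eif2s2, the beta subunit of eIF2, measured -0.52, -0.46 and -0.18 on the 3 arrays of day 4 and -0.38, -0.39 and -0.69 on those of day 8. It measured -0.79, -0.98 and -0.75 at day 15 and -0.89, -0.88 and -1.02 at day 21. All 12 values were negative, and every late array lay below every early one. Eif2s2 fell by 0.49 ± 0.17 at day 8 (adjusted p = 0.0221), 0.84 ± 0.12 at day 15 (adjusted p = 2.68e-04) and 0.93 ± 0.08 at day 21 (SD, n = 3; adjusted p = 4.92e-05). The day 8 call was lost without day 8 array 2 (-0.54) or array 3 (-0.39), while those of days 15 and 21 held without each of the 12 arrays.

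The gamma subunit of eIF2 is encoded in mouse by a pair of genes, Eif2s3x on the X and Eif2s3y on the Y chromosome. On the early arrays Eif2s3x lay between -0.25 and 0.14. It measured -0.41, -0.64 and -0.82 at day 15 and -0.30, -0.27 and -0.67 at day 21. It fell by 0.62 ± 0.20 at day 15 (adjusted p = 0.00339) and by 0.41 ± 0.22 at day 21 (adjusted p = 0.0165). The day 21 mean was -0.47 without array 1 and -0.29 without array 3, and neither was called. Eif2s3y was positive on all early arrays, from 0.07 to 0.47, and lay between -0.31 and 0.04 on the late ones. It was called at no day (-0.01 ± 0.05 at day 21, adjusted p = 0.976). Of eIF2B, the exchange factor that recharges eIF2 with GTP, Eif2b1, Eif2b2 and Eif2b4 were measured. They had day 21 means of -0.20, -0.13 and -0.14, and none was called at any day.

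Eif1a, a gene of eIF1A, which helps the small subunit to scan the mRNA, was spread widely at day 4 (-0.51, 0.18 and -0.05) and day 8 (-0.08, -0.38 and -0.67). It measured -0.75, -0.38 and -0.73 at day 15 and -0.61, -0.87 and -0.42 at day 21, negative on all late arrays. It fell by 0.62 ± 0.21 at day 15 (adjusted p = 0.0163) and by 0.63 ± 0.23 at day 21 (adjusted p = 0.00887). The calls were lost without day 15 array 1 (-0.55) or array 3 (-0.57), and without day 21 array 1 (-0.64) or array 2 (-0.51).

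The kinases that phosphorylate eIF2 under stress were not called at any day. Eif2ak1, the heme-regulated kinase, Eif2ak2, which senses double-stranded RNA, and Eif2ak3, the kinase of the endoplasmic reticulum, had day 21 means of -0.15, -0.11 and -0.01. Eif2ak4, the kinase that senses uncharged tRNA, had the highest day 21 mean of all 56 genes (0.54 ± 0.35, adjusted p = 0.192). Its values were 0.01, 0.52 and 0.24 at day 4, 0.57, 0.20 and 1.41 at day 8, -0.01, 0.23 and 1.59 at day 15, and 0.31, 0.36 and 0.95 at day 21. The 3 values near or above 1 all came from arrays of set 2, and the 7 arrays of set 1 lay between -0.01 and 0.57. Day 4 array 3 (0.24) and day 8 array 2 (0.20), also of set 2, lay within that range.

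eIF3 was represented by 11 subunits. At day 21, 3 of them were lower, Eif3d (-0.41 ± 0.16, adjusted p = 0.00904), Eif3a (-0.35 ± 0.20, adjusted p = 0.0311) and Eif3i (-0.31 ± 0.11, adjusted p = 0.0203), and 10 of 11 had a negative mean. Eif3a, the scaffold subunit, measured -0.13, 0.09 and 0.02 at day 4 and -0.51, -0.41 and -0.12 at day 21. Eif3d, which can bind the cap of some mRNAs, measured -0.04, -0.15 and 0.02 at day 4 and -0.54, -0.47 and -0.23 at day 21. Eif3i measured 0.04, -0.09 and 0.05 at day 4 and -0.35, -0.39 and -0.19 at day 21. In each of the 3 genes the lowest 2 day 21 values were those of arrays 1 and 2, and without either of these arrays the call was lost. At day 15 only Eif3a was lower (-0.38 ± 0.17, adjusted p = 0.0312), and not without any 1 of the 3 arrays of that day.

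The other eIF3 subunits were not called. Eif3l had the lowest day 21 mean of the complex (-0.47 ± 0.23, adjusted p = 0.103), with early values from -0.43 to 0.75. Eif3j1 stood at -0.22, -0.15 and -1.20 at day 15, with array 3 of set 2 far below the others (mean -0.52, adjusted p = 0.0627), and averaged -0.35 at day 21. Eif3m, Eif3c, Eif3h, Eif3k and Eif3e had day 21 means of -0.24, -0.11, -0.06, -0.05 and -0.01. Eif3f had the highest (0.12 ± 0.10). Its day 15 values were 0.52, 0.40 and -0.39, so the arrays of set 1 and set 2 had opposite signs, and without array 3 it was called higher, with a mean of 0.46. For Eif3e the 4 probes had day 21 means of -0.11, -0.08, 0.23 and -0.08.

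Within eIF4 both helicases were lower and the cap-binding protein was not called. Eif4a2 measured -0.74, -0.51 and -0.31 at day 4, -0.18, -0.14 and -0.55 at day 8, -0.36, -0.34 and -0.998 at day 15, and -0.70, -0.70 and -0.76 at day 21. It was negative on all 12 arrays, and the day 21 arrays hardly differed. Eif4a2 fell by 0.57 ± 0.37 at day 15 (adjusted p = 0.015; -0.35 and no call without array 3) and by 0.72 ± 0.04 at day 21 (adjusted p = 0.00248). Its paralog Eif4a1 measured -0.58, -0.72 and -0.80 at day 15 and fell by 0.70 ± 0.11 (adjusted p = 0.00702; not called without array 2, at -0.69). At day 21 it measured -0.25, -0.35 and -0.65, with a mean of -0.42 ± 0.21 that passed narrowly (adjusted p = 0.0498) and held in only 2 of the 12 fits that left out an array. Its probes had day 21 means of -0.60 and -0.24.

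Eif4e, which binds the cap and is known to limit initiation, measured 0.03, 0.30 and 0.15 at day 4 and -0.21, -0.13 and -0.03 at day 21 (-0.12 ± 0.09, adjusted p = 0.442). Eif4h, which stimulates the helicase, averaged -0.18 ± 0.20 at day 21 (adjusted p = 0.562), with single low arrays of -0.91 at day 4 and -1.08 at day 8. Of the proteins that bind eIF4E, the repressor Eif4ebp1 measured -0.32, -0.38 and -0.32 at day 21. It fell by 0.34 ± 0.03 (adjusted p = 0.016), a call lost without day 21 array 1 (-0.35) or array 2 (-0.32). Eif4ebp2 (0.07 ± 0.43) and Eif4enif1, which carries eIF4E into the nucleus (-0.05 ± 0.40), were not called.

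Eif5a, a factor that helps ribosomes past difficult peptide bonds, measured 0.20, -0.15 and 0.49 at day 4, -0.23, -0.27 and -0.36 at day 8, -0.23, -0.20 and -0.69 at day 15, and -0.59, -0.59 and -0.24 at day 21. It lay below 0 on every array from day 8 on. Eif5a fell by 0.47 ± 0.20 at day 21 (adjusted p = 0.0208), but not without array 1 or array 2 (-0.41 each). Eif6, which keeps the ribosomal subunits apart, averaged -0.11 ± 0.04 at day 21 (adjusted p = 0.323).

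**Figure D3:**
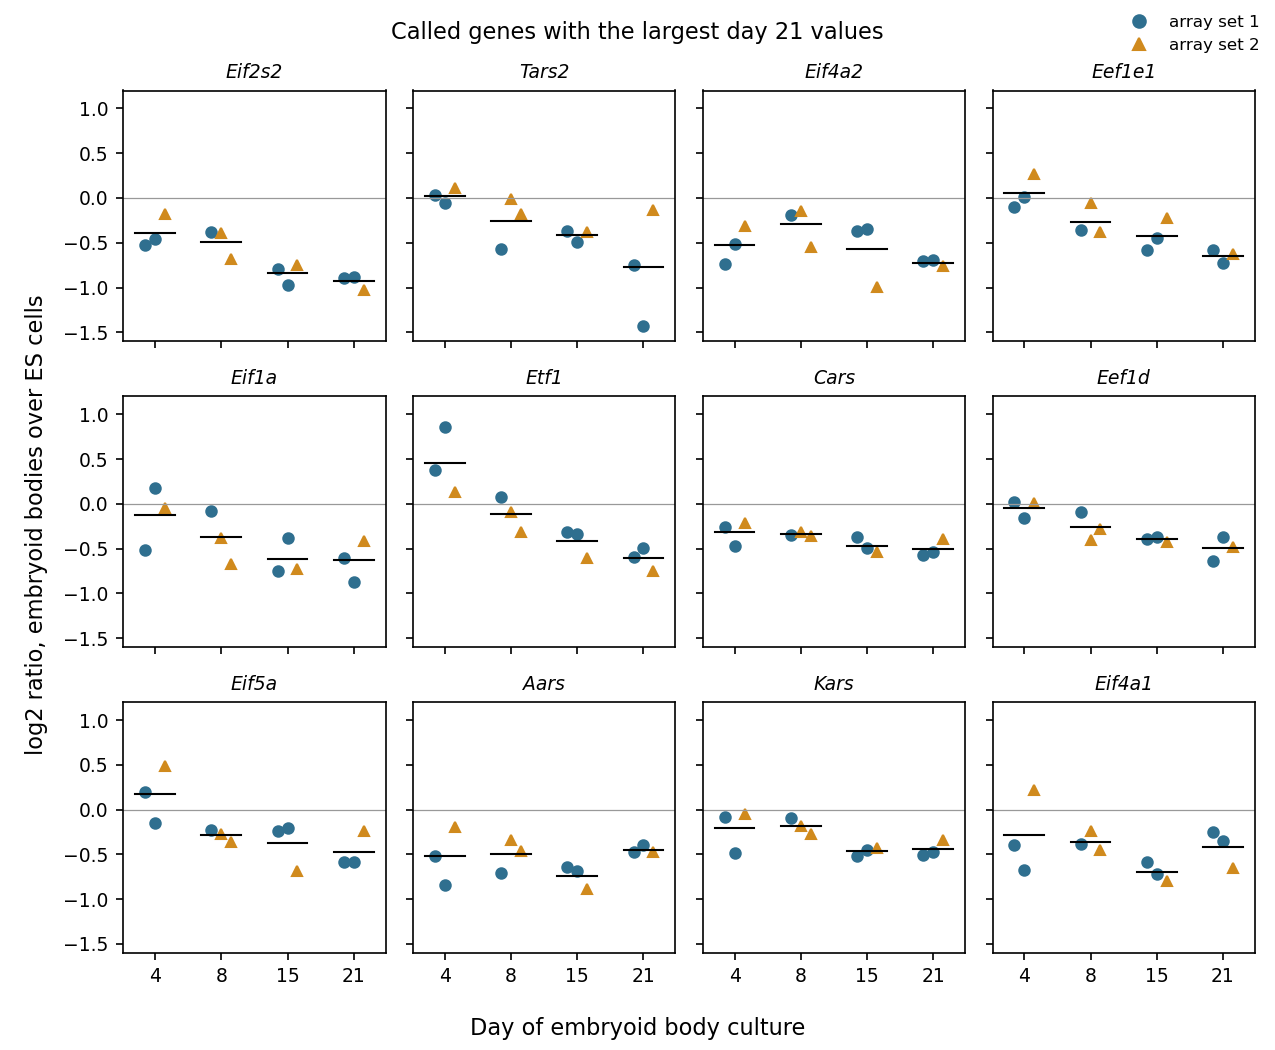
Each panel plots the log2 ratio of 1 gene (EB over ES cells) on the 12 arrays by day, for the 12 called genes with the largest absolute day 21 means; bars are day means and symbols mark the 2 array sets. Eif2s2 and Cars are negative on all 12 arrays, Etf1 is positive on the 3 day 4 arrays and negative on all late arrays, and Tars2 is spread from -0.13 to -1.43 at day 21.

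Among the elongation factors, 1 subunit of the exchange complex fell, and the factor that delivers tRNA was not called. Eef1d, a subunit of the complex that recharges eEF1A with GTP, measured 0.02, -0.16 and 0.01 at day 4, -0.09, -0.40 and -0.29 at day 8, -0.39, -0.37 and -0.42 at day 15, and -0.63, -0.38 and -0.48 at day 21. It fell by 0.39 ± 0.03 at day 15 (adjusted p = 0.00878; lost without array 1 at -0.40 or array 2 at -0.41) and by 0.50 ± 0.13 at day 21 (adjusted p = 0.00135). Eef1b2, another subunit of that complex, stood at -0.24, -0.25 and -0.48 at day 21 (-0.33 ± 0.14, adjusted p = 0.0723). Eef1a1, the main gene of eEF1A, measured 0.13, 0.02 and -0.38 at day 21 (-0.08 ± 0.27, adjusted p = 0.684), with its lowest late values on the arrays of set 2. Eef1a2, the form of muscle and neurons, averaged -0.06 ± 0.10 (adjusted p = 0.676).

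Eef1e1 bears an elongation factor name, but its product is a structural part of the complex that holds several cytosolic synthetases. It measured -0.10, 0.01 and 0.26 at day 4, -0.36, -0.05 and -0.38 at day 8, -0.58, -0.45 and -0.23 at day 15, and -0.58, -0.72 and -0.63 at day 21. All 9 arrays from day 8 on were negative. Eef1e1 fell by 0.42 ± 0.18 at day 15 (adjusted p = 0.0165; lost without array 1 at -0.34 or array 2 at -0.40) and by 0.65 ± 0.07 at day 21 (adjusted p = 8.52e-04).

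Eef2, the factor that moves the ribosome, was negative on all 12 arrays, at -0.89, -0.43 and -0.15 on day 4, -0.36, -0.16 and -0.19 on day 8, -0.38, -0.35 and -1.22 on day 15 and -0.34, -0.34 and -0.31 on day 21. The day 15 mean of -0.65 ± 0.49 was called (adjusted p = 0.0216) but rested on array 3, without which it was -0.37 (adjusted p = 0.102), and was lost without array 1 (-0.78) or array 2 (-0.80) too. The day 21 mean of -0.33 ± 0.02 was not called (adjusted p = 0.164). Eef2k, the kinase that inhibits eEF2, averaged 0.18 ± 0.31 at day 21 (adjusted p = 0.23).

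The release factor Etf1 had the largest difference between late and early days of all 56 genes. It measured 0.38, 0.86 and 0.13 at day 4, 0.07, -0.09 and -0.31 at day 8, -0.31, -0.33 and -0.61 at day 15, and -0.59, -0.49 and -0.75 at day 21. The 3 day 4 arrays were positive and all 6 late arrays negative. Etf1 was not called at day 4 (0.46 ± 0.37, adjusted p = 0.238), fell by 0.42 ± 0.17 at day 15 (adjusted p = 0.0495) and by 0.61 ± 0.13 at day 21 (adjusted p = 0.00536). The day 15 call held in only 3 of the 12 fits that left out an array, and that of day 21 in all 12.

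**Figure D4:**
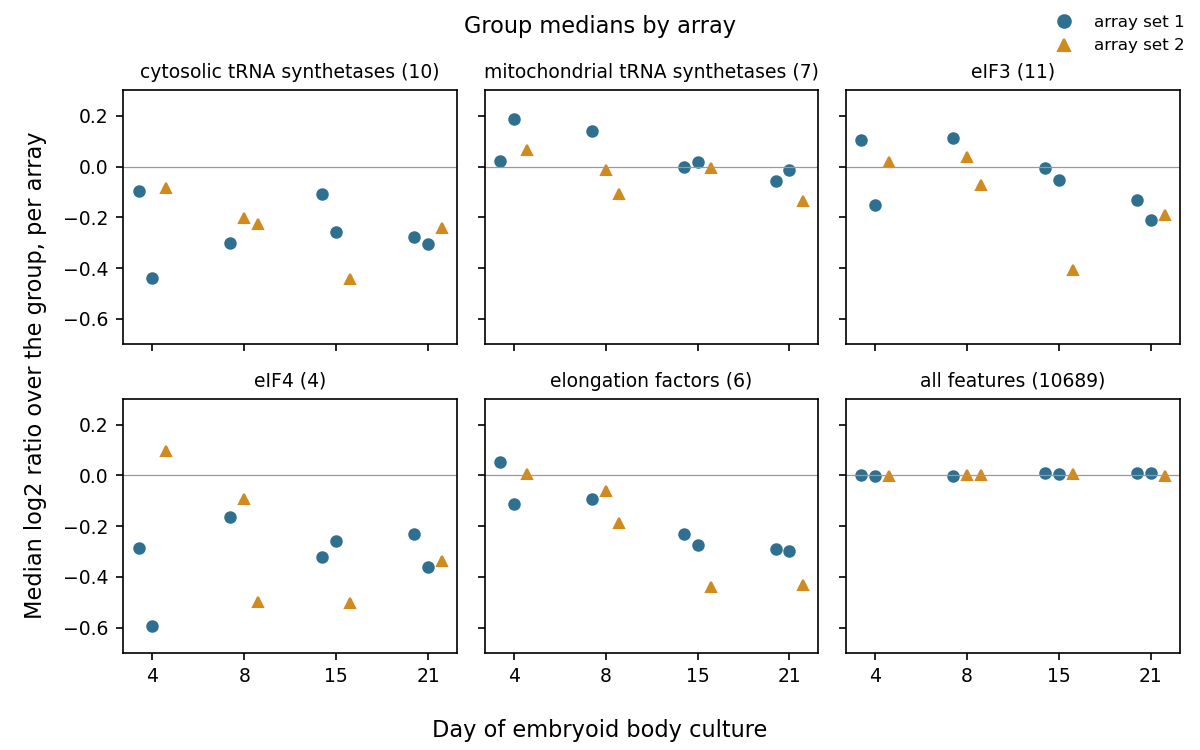
Points are the median log2 ratio (EB over ES cells) over the genes of a group on each of the 12 arrays, by day, with the number of genes in brackets and symbols for the 2 array sets. At day 21 the medians of cytosolic synthetases lie between -0.30 and -0.24 and those of mitochondrial synthetases between -0.13 and -0.01. The medians of all features lie between -0.0008 and 0.0106 at that day.

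The cytosolic tRNA synthetases had a negative median at every day. Of 10 measured, 2 were called lower at day 8, 4 at day 15 and 4 at day 21, against 1.06%, 4.9% and 9.93% of all features. The median over the 10 was -0.21, -0.26, -0.30 and -0.31 at days 4, 8, 15 and 21. All 10 had a negative mean at day 21, from -0.50 (Cars) to -0.10 (Wars).

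Cars, which charges the cysteine tRNA, measured -0.26, -0.47 and -0.21 at day 4, -0.35, -0.31 and -0.36 at day 8, -0.38, -0.50 and -0.53 at day 15, and -0.58, -0.54 and -0.39 at day 21. It was negative on all 12 arrays, with little spread from day 8 on. Cars fell by 0.34 ± 0.02 at day 8 (adjusted p = 0.0369), 0.47 ± 0.08 at day 15 (adjusted p = 0.00235) and 0.50 ± 0.10 at day 21 (adjusted p = 8.14e-04). Its 2 probes disagreed at day 8, with means of -0.47 and -0.21, and at day 15, with means of -0.71 and -0.22. On its own the second probe was called at neither of these days (adjusted p = 0.158 and 0.0798). At day 21 the probe means were -0.50 and -0.51.

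Aars, the alanine enzyme, measured -0.52, -0.84 and -0.20 at day 4, -0.71, -0.34 and -0.46 at day 8, -0.65, -0.69 and -0.89 at day 15, and -0.48, -0.39 and -0.48 at day 21. It too was negative on all 12 arrays, and its lowest day mean was that of day 15. Aars fell by 0.50 ± 0.19 at day 8 (adjusted p = 0.0368), 0.74 ± 0.13 at day 15 (adjusted p = 0.00163) and 0.45 ± 0.05 at day 21 (adjusted p = 0.0142). The day 8 calls of Aars and Cars each held in 4 of the 12 fits that left out an array. The day 21 call of Aars was lost without any 1 of the 3 arrays of that day (-0.43 to -0.48), and its day 15 call held throughout.

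Kars and Rars, the lysine and arginine enzymes, are held with Eef1e1 in the multi-synthetase complex. Kars was negative on all 12 arrays and measured -0.52, -0.45 and -0.43 at day 15 and -0.51, -0.47 and -0.34 at day 21. It fell by 0.47 ± 0.04 (adjusted p = 0.00601) and 0.44 ± 0.09 (adjusted p = 0.00464), the day 15 call not holding without array 1 (-0.44) or array 2 (-0.47) of that day. Its 2 probes had day 21 means of -0.55 (adjusted p = 0.00134) and -0.33, and the second was not called on its own (adjusted p = 0.0812). Rars measured -0.33, -0.45 and -0.21 at day 15 and -0.33, -0.29 and -0.32 at day 21. It fell by 0.33 ± 0.12 (adjusted p = 0.0151) and 0.31 ± 0.02 (adjusted p = 0.0121), but without array 1 or array 2 of either day it was not called. The remaining cytosolic enzymes, Vars (-0.30), Gars (-0.33), Nars (-0.20), Sars (-0.16), Hars (-0.11) and Wars (-0.10), were not called at day 21 or before. Hars had 1 high value, 1.15 on day 4 array 2, beside 0.10 and 0.17.

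The mitochondrial synthetases differed in count from the cytosolic ones, with 1 of 7 called at day 21 against 4 of 10, a difference that was not tested. Over all features 9.93% were called lower at that day. The groups follow the symbol, ars2 against ars, so a gene whose enzyme serves both places counts as cytosolic. Tars2, the threonine enzyme, measured -0.36, -0.49 and -0.38 at day 15 and -0.75, -1.43 and -0.13 at day 21. It fell by 0.77 ± 0.65 at day 21 (adjusted p = 0.01), the largest spread of any called gene, and without array 2 it stood at -0.44 and was not called, nor without array 1 (-0.78). The other 6, Ears2, Fars2, Sars2, Pars2, Wars2 and Lars2, had day 21 means between -0.23 and 0.10 and no call at any day.

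Promoter sequences were looked at for the genes that fell together, because E-boxes (CACGTG) are read by Myc-type factors and the element TGATGNAAN by ATF4, a factor known in mammals to act on synthetase genes. RefSeq promoters of build GRCm38.p6, each 300 bases long and reaching across the annotated start, were at hand for 41 of the 56 genes. CACGTG was found in 11 of the 41 genes (26.8%), against 8.09% of all 27025 genes with such a promoter, and TGATGNAAN in 4 (9.76%), against 4.5%. Both strands were searched, base composition was not matched, and the 2 motifs did not overlap. Of the 11 genes called lower at day 21 with a promoter, 4 held CACGTG (Aars, Eif3a, Eif4a1 and Eif5a) and 2 held TGATGNAAN (Aars and Eif2s3x). The other 7 genes with CACGTG, among them Eif4e with 2 copies, were not called at day 21. Shown are a promoter with both motifs, 1 of each kind alone, and the uncalled Eif4e, each 5′ to 3′ on the gene's strand with the motifs in capitals; TGATGNAAN lies on the opposite strand, so its complement is read.
Aars, chr8:111033592-111033891, plus strand: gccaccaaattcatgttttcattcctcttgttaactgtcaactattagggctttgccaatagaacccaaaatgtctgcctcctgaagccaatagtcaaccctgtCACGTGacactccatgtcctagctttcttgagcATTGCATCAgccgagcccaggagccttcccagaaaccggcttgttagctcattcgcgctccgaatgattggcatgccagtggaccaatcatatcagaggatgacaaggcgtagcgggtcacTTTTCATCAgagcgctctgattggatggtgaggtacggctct
Eif2s3x, chrX:94212602-94212901, minus strand: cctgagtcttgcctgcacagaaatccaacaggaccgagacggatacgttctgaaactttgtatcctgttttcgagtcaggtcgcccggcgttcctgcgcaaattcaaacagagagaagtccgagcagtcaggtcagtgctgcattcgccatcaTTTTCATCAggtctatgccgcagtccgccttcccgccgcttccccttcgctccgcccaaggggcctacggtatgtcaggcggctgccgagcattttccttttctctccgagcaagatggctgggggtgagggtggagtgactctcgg
Eif4a1, chr11:69672374-69672673, minus strand: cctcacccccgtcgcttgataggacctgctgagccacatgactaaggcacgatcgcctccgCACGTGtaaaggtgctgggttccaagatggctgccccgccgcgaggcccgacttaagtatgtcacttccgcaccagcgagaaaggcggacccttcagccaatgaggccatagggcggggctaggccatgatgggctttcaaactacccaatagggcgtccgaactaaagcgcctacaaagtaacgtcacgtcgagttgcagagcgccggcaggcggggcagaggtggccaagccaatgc
Eif4e, chr3:138527018-138527317, plus strand: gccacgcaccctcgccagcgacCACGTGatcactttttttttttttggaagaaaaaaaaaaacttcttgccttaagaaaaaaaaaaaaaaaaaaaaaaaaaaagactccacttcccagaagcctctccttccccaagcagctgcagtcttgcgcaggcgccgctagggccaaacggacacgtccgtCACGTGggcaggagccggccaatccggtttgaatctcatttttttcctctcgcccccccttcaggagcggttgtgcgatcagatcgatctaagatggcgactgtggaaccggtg
In the Aars promoter CACGTG begins at base 105 and TGATGNAAN at bases 138 and 259, counted from 1 at the 5′ end. In that of Eif2s3x TGATGNAAN begins at base 154, in that of Eif4a1 CACGTG at base 62, and in that of Eif4e at bases 23 and 187. These are letters in a window and do not show binding.

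In the difference between late days (15 and 21) and early days (4 and 8), an ES channel and a dye effect alike on all arrays drop out. Whether all arrays held the same ES RNA is not known here. That difference was called for 4 of the 56 genes (7.14%), all lower. Over all features 5.73% were called, 2.98% higher and 2.76% lower. Etf1 ranged from -0.75 to -0.31 with a median of -0.54 on the 6 late arrays, against -0.31 to 0.86 with a median of 0.10 on the 6 early ones, and the difference was -0.69 (SE 0.12, adjusted p = 0.00716). The ranges nearly touched. Eif2s3x ranged from -0.82 to -0.27 on late arrays and from -0.25 to 0.14 on early ones, a difference of -0.52 (SE 0.10, adjusted p = 0.0127). Eif2s2 ranged from -1.02 to -0.75 on late arrays and from -0.69 to -0.18 on early ones, a difference of -0.45 (SE 0.09, adjusted p = 0.0126). In these 3 genes and in Eif2s3y (difference -0.30, adjusted p = 0.0729) no late array reached the early ones; 1.69% of all features had such a pattern. Eef1e1 ranged from -0.72 to -0.23 on late arrays and from -0.38 to 0.26 on early ones, a difference of -0.43 (SE 0.10, adjusted p = 0.0222). Eef1e1 was not called without day 8 array 2, day 15 array 1 or 2, or day 21 array 2 (-0.42 to -0.38), whereas the other 3 were called without each of the 12 arrays. Under the other settings Etf1 alone of the 4 kept its call throughout. Eif2s2 was not called after quantile normalization (-0.31, adjusted p = 0.0959) or scaling of the arrays (-0.28, adjusted p = 0.15). Eif2s3x was not called after scaling (-0.48, adjusted p = 0.0517) or in the first array set alone (-0.39, adjusted p = 0.0697). Eef1e1 lost its call under these 3 settings as well (-0.39 to -0.36).

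The late-minus-early differences of the cytosolic synthetases were small: their median was -0.12 and none was called, with Aars at -0.08 (adjusted p = 0.758) and Cars at -0.16 (adjusted p = 0.258). Between day 21 and day 15 limma called none of the 56, 1 had an unadjusted p under 0.05, and 0.00936% of all features were called. The median difference over the 56 was -0.06.

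**Figure D5:**
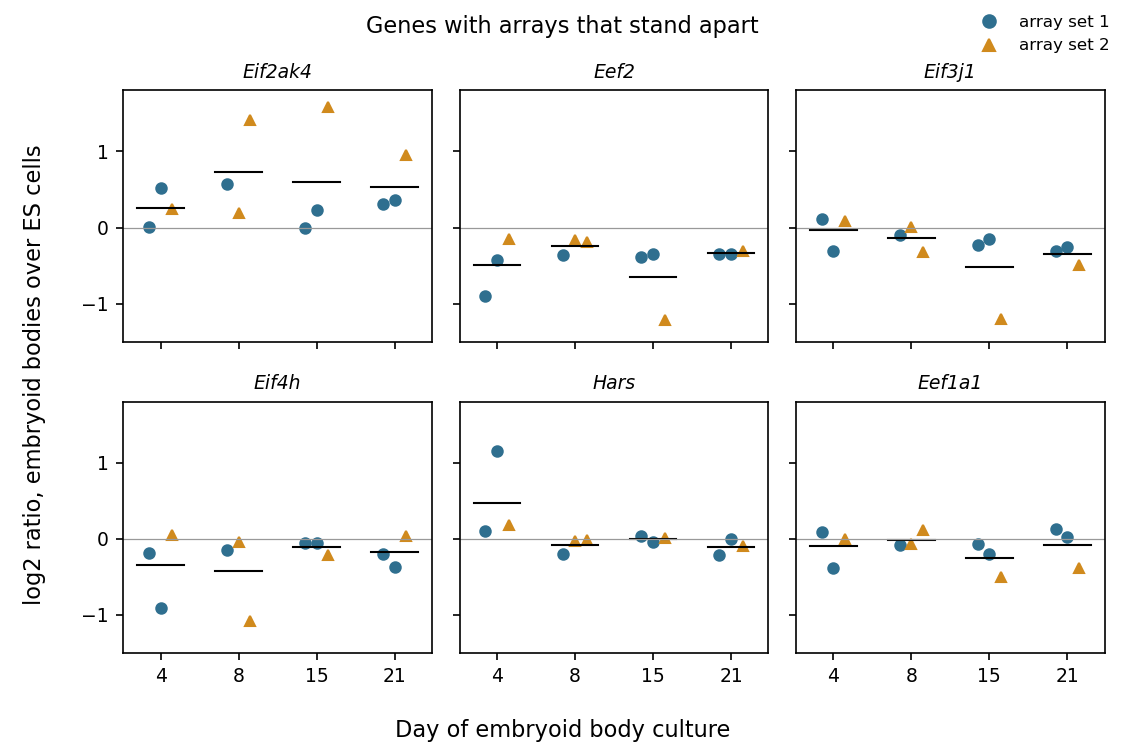
Each panel plots the log2 ratio of 1 gene (EB over ES cells) on the 12 arrays by day, with day means as bars and symbols for the 2 array sets, for 6 genes in which single arrays lay far from the others of their day. Eif2ak4 reaches 1.59 and Eef2 -1.22 on day 15 array 3 of set 2, and Hars reaches 1.15 on day 4 array 2 of set 1.

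Other translation genes, outside the symbol rule, gave both directions. Of 10 further cytosolic factors measured, 4 were lower and 1 higher at day 21, against 9.93% and 8.78% of all features. At day 15, 3 were lower and 2 higher, against 4.9% and 5.66% of all features. Abce1, which recycles ribosomes after termination, measured -0.54, -0.42 and -0.76 at day 21 and fell by 0.57 ± 0.18 (adjusted p = 0.00248). Gspt1, the partner of Etf1 in termination, measured -0.55, -0.63 and -0.61 and fell by 0.60 ± 0.04 (adjusted p = 0.0306). Pabpc1, the poly(A)-binding protein, fell by 0.56 ± 0.12 (adjusted p = 0.00123) and Hbs1l, a factor of ribosome rescue, by 0.27 ± 0.20 (adjusted p = 0.0402). Paip1, which binds Pabpc1 and stimulates translation, measured 0.57, 0.62 and 0.52 and rose by 0.57 ± 0.05 (adjusted p = 0.0104).

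Of 4 further synthetase subunits and partners, 2 were lower at day 21, against 9.93% of all features. They are both subunits of the cytosolic phenylalanine enzyme: Farsb fell by 0.66 ± 0.06 (adjusted p = 6.83e-04) and Farsa by 0.26 ± 0.09 (adjusted p = 0.0365). Eprs, the joint glutamate and proline enzyme of the multi-synthetase complex, stood at 0.03 ± 0.28 (adjusted p = 0.87), and the scaffold Aimp1 at -0.42 ± 0.20 (adjusted p = 0.0826). Of the mitochondrial elongation and recycling factors Gfm2 fell by 0.54 ± 0.08 at day 21 (adjusted p = 6.07e-04), and Gfm1 stood at -0.34 ± 0.45 (adjusted p = 0.0743). At day 15 both Gfm1 and Gfm2 were called lower, each with a mean of -0.43, where 4.9% of all features were called lower.

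Of 16 ATF4 pathway genes 1 was lower and none higher at day 21, with a median of 0.05, where 18.7% of all features were called. Asns, asparagine synthetase, measured -1.08, -0.98 and -0.70 and fell by 0.92 ± 0.20 (adjusted p = 1.34e-04), while Atf4 itself stood at 0.11 ± 0.03 (adjusted p = 0.419). Asns was also called lower at day 8 (-0.52, adjusted p = 0.0271), day 15 (-0.64, adjusted p = 0.00272) and in late against early days (-0.39, adjusted p = 0.0496). The transcription factor Atf5 was called higher at day 15 (0.29, adjusted p = 0.0266) and in late against early days (0.40, adjusted p = 0.00786). Vldlr, a lipoprotein receptor, was called higher at day 8 (1.58, adjusted p = 0.0479), where its arrays read 0.80, 0.78 and 3.16. Of 12 genes of mTOR, MAPK and Myc signalling, Akt1, a growth factor kinase, was the 1 called at day 21, at 0.42 ± 0.09 (adjusted p = 0.0182). Myc stood at 0.06 ± 0.23 (adjusted p = 0.8) and Mtor at -0.10 ± 0.03 (adjusted p = 0.363) at day 21. At day 15 Mtor was the 1 gene of the 12 called, lower at -0.27 (adjusted p = 0.0252).

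Of the 18 day 21 calls, 7 held without each of the 12 arrays and under each of the other settings tried on the gene's mean over probes: Eif2s2, Eif4a2, Eef1d, Eef1e1, Etf1, Cars and Kars. Of the 2 of these with more than 1 probe, both Cars probes were called on their own and 1 of the 2 Kars probes was not. Without day 21 array 1, 7 of the 56 genes were called, and without array 2 it was 8. In these fits the calls over all features dropped from 1999 to 753 and 872. At day 15, 4 of 14 calls held without each array, those of Eif2s2, Eif2s3x, Aars and Cars, and 2 of these, Eif2s2 and Aars, also held under each other setting. With day 15 fitted alone, Eif2s3x (-0.62, adjusted p = 0.0502) and Cars (-0.47, adjusted p = 0.0525) were not called. At that day 6 genes were called without day 15 array 1 or array 2. The calls over all features dropped there from 1129 to 307 and 235. None of the 3 day 8 calls held, with no gene called without day 8 array 2 or array 3. Of all features 14 and 6 were called in those fits, against 244 with every array. In the 7 arrays of set 1 alone, 16 genes were lower at day 21 and none higher. At day 15, 10 were lower and Eif3f was higher. Of all features 2156 were called at day 21 and 1742 at day 15 in these 7 arrays.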

How the data were processed

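The deposited values were log2 ratios, 1 column for each of 12 arrays, normalized by the authors per the labels, with base 2 read by convention. Per the labels' protocols, RNA was copied to cDNA and transcribed with Cy3-UTP or Cy5-UTP. The scanner, background correction and normalization method are not given in the sources used here. All 11520 features had a value on every array. Probes were named through the platform annotation (10043 with 1 symbol, 29 with several, 1448 with none) and RefSeq (10025 matched), and probes of a gene were averaged, which left 10689 features.

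A mean per day was fitted over all 12 arrays with limma 3.58.1 in R 4.3.3 (lmFit, eBayes; 8 residual and 4.35 prior degrees of freedom) and tested two-sided against 0, the ES channel counting as 1 control sample whose own spread is left out. The procedure was tested on simulated data. Genes with values on every array are those called at any day, up to 12 by their day 21 mean; others stand as examples of their family or for a single array that lay apart, the last chosen after their values were seen. The genes and lists were chosen with earlier results of these data known. Alternatives were other normalizations, array weights, single probes, each day alone, blocks, and leaving out arrays.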

Additional observations from a re-analysis of the deposited data

Results flagged for a closer look

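The effects against ES cells differed between late and early days, by limma's test of the difference itself, for 4 of the 56 genes (7.14%). Over all features 5.73% were called, 2.76% of them on the lower side. The late-minus-early difference was -0.69 for Etf1, -0.52 for Eif2s3x, -0.45 for Eif2s2 and -0.43 for Eef1e1. All 6 late arrays lay below all 6 early ones for Etf1, Eif2s3x and Eif2s2, and also for the uncalled Eif2s3y. Of all features 1.69% had such a pattern. The ranges of Etf1 nearly touched, and those of Eef1e1 overlapped. Etf1 kept its call under every setting tried. Eif2s2 was not called after quantile normalization or scaling of the arrays (adjusted p = 0.0959 and 0.15), and Eif2s3x was not called after scaling or in the first array set alone (adjusted p = 0.0517 and 0.0697). Eef1e1 lost its call under all 3 of these settings and without each of 4 arrays.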

How the results depend on the processing

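No called gene changed direction under any setting: over the calls and settings tried, 601 outcomes kept their side of the threshold and 136 did not. These totals are no measure of stability, because the genes were picked as called. Leaving out an array of another day also keeps a day's mean and alters only the shared spread. Square brackets below give the calls over all features in the same fit. At day 4, where none was called, quantile normalization gave 5 calls (4 lower and Etf1 higher) [137], scaling of the arrays 2 [51] and array weights 4 [94]. At day 8, with 3 calls, array weights gave 6 [999], and that day alone [1] and the first array set alone [10] gave 0. At day 15, with 14 calls, that day alone gave 4 [259]. At day 21, with 18 calls, quantile normalization [1068] and scaling [969] each gave 10. Between late and early days, with 4 calls, quantile normalization gave 2 [321], scaling 1 [331], array weights 10 [1679] and the first array set alone 2 [959]. Leaving out 1 array at a time gave 0 to 4 calls at day 8 [6 to 380] and 6 to 16 at day 15 [235 to 1554]. It gave 7 to 19 at day 21 [753 to 2221] and 3 to 7 between late and early days [323 to 882]. At day 4 [0 to 2] and between days 21 and 15 [0 to 1] it gave 0. The first array set alone was chosen after seeing the data. A fit of those days alone could not differ for late against early days, which use all arrays, and was not run. The causes were not tested. With the replicate number as a block the counts were 0 [0], 3 [350], 15 [1243] and 19 [2036] at days 4, 8, 15 and 21. They were 5 [597] between late and early days and 0 [0] between days 21 and 15. Of the calls only that of Eif4a1 at day 21 was lost with this block (adjusted p = 0.0661). The 18 pairs of same-numbered arrays had a median correlation of deviations of 0.08, with 8 over 0.1, against -0.03 in the 36 other pairs. Of 12 arrays, 10 correlated best with one of their own number and all 12 with one of their own set. Whether the numbers pair the samples is not settled, and the main fit did not pair them. Signal over background was not analysed here.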
